A study of Zea mays with 9 samples.

Results

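Around *DCL1* on chromosome 1 of maize, 244 genes were expressed in the shoot apex. They were taken by position alone: rows of the deposited count table on chromosome 1 whose midpoint lies within 5 Mb of the start of *DCL1* (GRMZM2G040762, chromosome 1, 4607185 to 4614592 in B73 RefGen_v3), without *DCL1* itself and without miRNA precursors, and reaching an average of 1 RPM (a read count scaled to a common library total) in any of the 4 groups. Of 389 such rows, 145 were below 1 RPM in every group. The whole table holds 45498 rows, of which 23512 reached 1 RPM in a group. *DCL1* lies near the chromosome end, so the interval covers only 4.61 Mb before it. Before means toward lower coordinates and the chromosome end, and distances run from the lower end of *DCL1*, which is transcribed toward the chromosome end.

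The groups were *dcl1-2* CZ, wild-type CZ, *dcl1-2* P3 and wild-type P3, with 2 RNA-seq libraries each, from sibling seedlings 14 d old. The CZ is the central zone of the shoot apical meristem, which holds the stem cells, and P3 is a young leaf primordium; both were cut out by laser microdissection, with several apices pooled per library, and the RNA was linearly amplified. *dcl1-2* is a single, weak allele of *DCL1* that was backcrossed into the inbred B73 for several generations, and the wild-type seedlings come from the same families. The CZ libraries were sequenced from 1 end and the P3 libraries from both ends, so tissue and sequencing layout cannot be told apart.

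*DCL1* encodes Dicer-like 1, the nuclear RNase III enzyme that cuts plant miRNAs out of their hairpin precursors. When an allele is backcrossed into another line, the chromosome around it stays with it until recombination separates them, so that genes close to the selected allele can still carry the sequence of the donor line. In these libraries, an effect of reduced DCL1 activity on a gene of the interval and an effect of linked donor sequence cannot be told apart, and the extent of donor sequence was not measured.

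Only 1 of the 244 genes, *rld2* (GRMZM2G042250), stands in the study's lists of miRNA targets and miRNA pathway genes. It encodes a class III HD-ZIP transcription factor, a family that specifies the upper, adaxial side of leaves, and is a target of miR166. A single further gene model, GRMZM2G092592, overlaps the precursor *MIR171e*. The mature miRNAs of both and the target site in *rld2* are shown because they tie these 2 genes to the pathway that *dcl1-2* weakens. Capitals mark the seed, bases 2 to 8 of the miRNA, and, in the site, the bases opposite to it. The miRNA sequences are those of the deposited small RNA table and the site that of the study's target list.
miR166a: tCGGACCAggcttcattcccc
rld2 miR166 site: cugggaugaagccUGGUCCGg
miR171e: tGATTGAGccgtgccaatatc
All 7 seed bases of miR166a pair with the *rld2* site, and 4 of the 21 positions, all outside the seed, do not form a Watson-Crick pair. The sequence of miR166a is shared by 7 entries of the table and was read 2139473 times in the wild-type small RNA library, against 1852 reads for miR171e, whose sequence 4 entries share.

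The 8 libraries held 8626824 to 30327603 counts, with the CZ libraries at 24753974 or more and the P3 libraries at 10328582 or fewer. Replicates of a group differed by more than sampling noise, so none was counted as a repeat of another. The study describes them as biological replicates. The p-values rest on the spread between the 2 libraries within each group of a fit, which edgeR moderates across all genes tested. *DCL1* itself had 84.0 and 91.7 RPM in *dcl1-2* CZ, against 65.4 and 62.2 RPM in wild-type CZ, and 141 and 136 RPM in *dcl1-2* P3, against 73.2 and 101 RPM in wild-type P3. Its log2 fold change was 0.43 ± 0.14 in the CZ and 0.74 ± 0.15 in P3 (SE, edgeR adjusted p = 0.272 and 0.0114). These counts do not check the genotype, since *dcl1-2* is a weak allele and counts do not show its sequence. *kn1*, which marks the meristem, ranged between 969.5 and 1215 RPM across CZ libraries and between 2.07 and 5.13 RPM across P3 libraries. The 8 leaf YABBY genes summed to 806 to 1079 RPM in P3. In the CZ they summed to 10.4 and 24.5 RPM in *dcl1-2*, against 36.9 and 54.2 RPM in wild type, and 8 of 8 reached 1 RPM in 1 wild-type library against 4 of 8 in each other CZ library. The summed level of these leaf markers thus moved with genotype in the CZ, and its part in the CZ differences below was not tested.

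In the CZ, 10 of the 201 genes of the interval that could be tested were called differentially expressed, 3 higher and 7 lower in *dcl1-2* (4.98% of them; edgeR's quasi-likelihood test, Benjamini-Hochberg adjusted p under 0.05 over all genes tested). Over all 19897 genes tested in the CZ the share was 0.292%, with 0.116% higher and 0.176% lower. Without *DCL1* and the precursors, 53 genes were called, and 10 of these, or 18.9%, lay in the interval, which holds 1.01% of the genes tested. Named examples were *TUB1*, a beta-tubulin gene, and *smt2*, a sterol methyltransferase gene, both lower.

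In P3, 29 of 224 tested genes of the interval were differentially expressed, 12 higher and 17 lower (12.9%), against 4.5% of all 22498 genes tested, 3.34% higher and 1.16% lower. Lower calls outnumbered higher ones in the interval, whereas over all genes 752 were higher and 260 lower. Some of the lower calls passed the filter through wild type alone. Among genes averaging 1 RPM or more in each genotype, lower calls did not outnumber higher ones, with 9 of each in the interval. Over all such genes 680 were higher and 217 lower. Of 988 genes called in P3 without *DCL1* and precursors, 29 lay in the interval (2.94%, against 0.998% of the genes tested). *rld2*, *smt2* and GRMZM2G137352 were among the higher genes, and *gpb1*, GRMZM2G105415 and GRMZM2G428184 among the lower ones.

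The count of calls rested on single libraries. In the CZ it was 6 of 201 without *dcl1-2* replicate 1, 5 without *dcl1-2* replicate 2, 18 without wild-type replicate 1 and 21 without wild-type replicate 2, which made up 2.99%, 2.49%, 8.96% and 10.4% of the genes of the interval, against 0.608%, 0.206%, 0.854% and 2.9% of all genes. In P3 it was 13 of 224 without *dcl1-2* replicate 2 (5.8%, against 2.33% of all genes). Some genes passed the filter through 1 genotype only, 4 through *dcl1-2* and 15 through wild type in the CZ and 8 and 20 in P3, and had to differ to do so. Among genes averaging 1 RPM or more in each genotype, a filter chosen after seeing the data, 9 of 182 were called in the CZ (4.95%, against 0.283% of all such genes) and 18 of 196 in P3 (9.18%, against 4.28%). Of the 9 in the CZ, 3 were higher (0.123% of all such genes) and 6 lower (0.16%), and of the 18 in P3, 9 were higher (3.24%) and 9 lower (1.03%). With a log2 fold change of 1 or more in either direction required as well, 7 members remained in the CZ (0.246% of all genes) and 19 in P3 (2.76%).

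**Figure D1:**
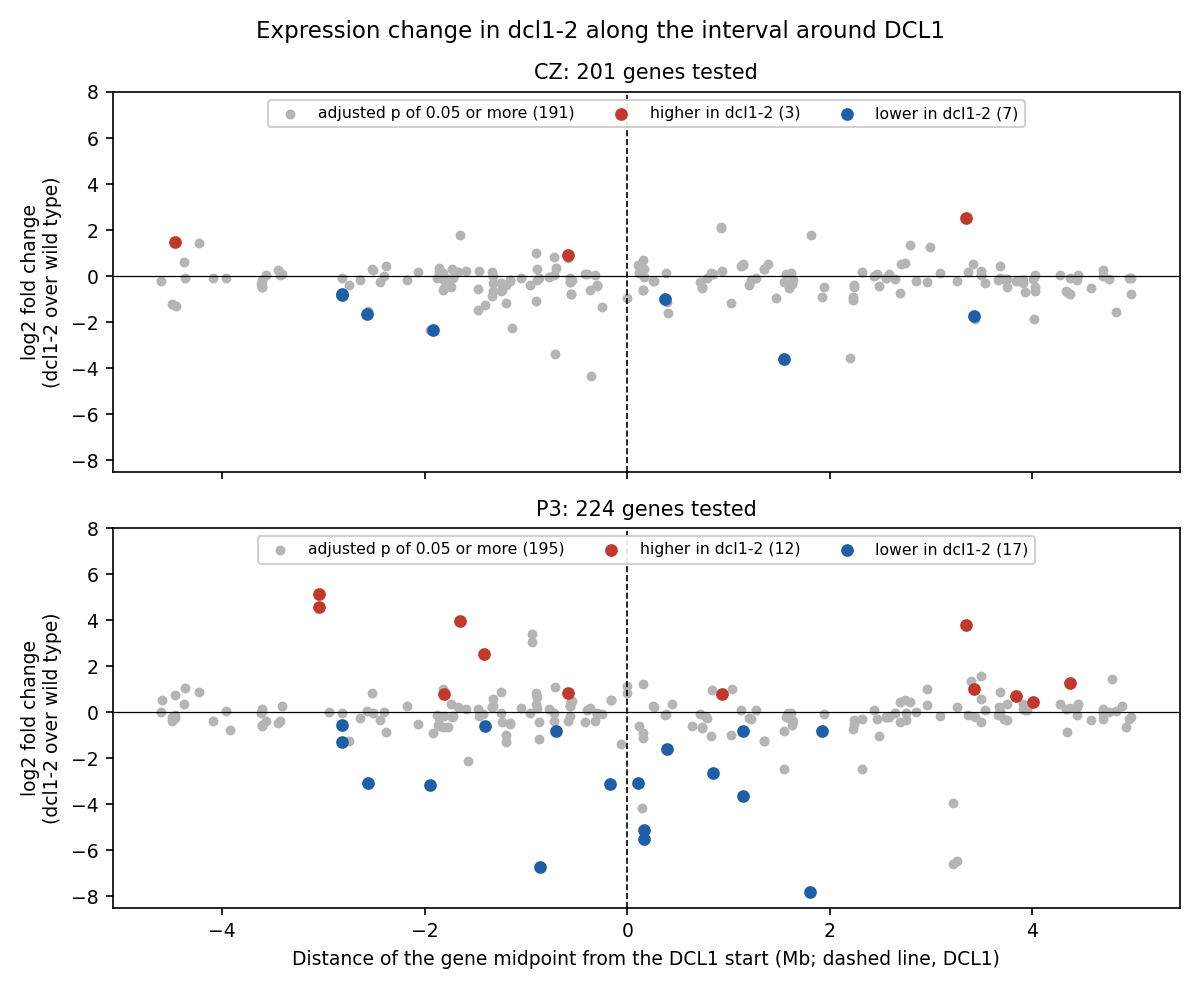
Each point is a gene within 5 Mb of *DCL1*; the x axis gives the distance of its midpoint from the *DCL1* start in Mb, the y axis its log2 fold change of *dcl1-2* over wild type in the CZ (top, 201 genes) or P3 (bottom, 224 genes). Red points (3 in the CZ, 12 in P3) and blue points (7 and 17) mark genes with an adjusted p under 0.05; fitted values of genes with no count in a genotype, such as the lowest blue point in P3, are no estimate of a fold.

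The size of the differences was larger in the interval as well. The median absolute log2 fold change was 0.31 in the CZ (n = 201 genes), against 0.20 for the other genes tested, and 0.39 in P3 (n = 224), against 0.27. A log2 fold change of 1 or more in either direction was reached by 34 genes of the interval in the CZ (16.9%, against 6.1% of the others) and by 48 in P3 (21.4%, against 10.5%). The median log2 fold change was -0.15 in the CZ, where 69 genes had a positive and 132 a negative value, and -0.09 in P3, with 95 positive and 129 negative. The medians of the other genes were -0.0020 and -0.02. All these values include genes that passed the filter through 1 genotype only and had to differ. In the CZ 4 members passed through *dcl1-2* alone and 15 through wild type alone, and in P3 8 and 20. In P3 they also include fitted values of genes with no count in a genotype, which are no estimate of a fold. Sizes were not compared among genes at 1 RPM or more in both genotypes.

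By distance, calls in P3 were most frequent next to *DCL1* on the far side from the chromosome end. Within the first 1 Mb after *DCL1*, 6 of 24 genes were called (25%), 5 of them lower, and in the next 1 Mb 4 of 21 (19%), all lower. Among these lower calls, GRMZM2G176849, GRMZM2G475380, GRMZM2G176521, GRMZM2G428184 and *gpb1* averaged below 1 RPM in *dcl1-2* P3. They passed the filter through wild type alone and could only be lower. The order of the shares by distance rests in part on them and was not repeated among genes at 1 RPM or more in both genotypes. GRMZM2G176849 overlaps GRMZM2G475380, and GRMZM2G428184 overlaps GRMZM2G129243, so these calls are not all independent. From 2 to 3 Mb after *DCL1*, 0 of 21 genes passed by edgeR and 0 by DESeq2, against 4.5% and 4.62% of all genes, and 6 had an unadjusted p under 0.05 (28.6%, against 17.9% of all genes). From 3 to 5 Mb after it 5 of 47 were called (10.6%), all higher. On the side of the chromosome end, the share was highest from 3 to 2 Mb before *DCL1*, with 3 of 16 genes, all lower (18.8%). Within 2 Mb on either side, 19 of 116 were called in P3 (16.4%). In the CZ, the few calls by adjusted p were not most frequent next to *DCL1*. Their share was highest from 3 to 2 Mb before it, with 3 of 14 genes, all lower (21.4%). Within 2 Mb on either side 4 of 106 were called (3.77%, against 4.98% within 5 Mb and 0.292% of all genes). With an unadjusted p under 0.05 in the CZ, the order differed, with 33 of 106 within 2 Mb (31.1%), against 27.9% within 5 Mb. That share was highest from 1 to 2 Mb after *DCL1* (36.4%), beside 35.7% from 3 to 2 Mb before it and 10.5% of all genes. In both tissues the calls from 3 to 2 Mb before *DCL1* include GRMZM2G161560 and GRMZM2G461427, whose models overlap and share reads, so these are not independent. The runs of lower and of higher genes are a description of neighbouring genes, which are not independent of one another.

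Beyond the interval, the share of calls in P3 lay between 2.78% and 5.56%, against 4.5% of all genes. There 5 of 93 genes at 5 to 10 Mb after *DCL1* were called (5.38%), 9 of 162 at 10 to 20 Mb (5.56%), 13 of 467 at 20 to 50 Mb (2.78%) and 4.27% on the other chromosomes. In the CZ, 0 of 78 genes at 5 to 10 Mb and 0 of 150 at 10 to 20 Mb were called by edgeR, which called 0.292% of all genes and 0.21% on the other chromosomes. By DESeq2, 4 of the 78 (5.13%) and 3 of the 150 (2%) were called, against 23 of 201 within 5 Mb (11.4%) and 1.73% of all genes. Of these same CZ genes, 14 and 20 had an unadjusted p under 0.05 (17.9% and 13.3%), against 56 of 201 genes, or 27.9%, within 5 Mb, 10.5% of all genes and 10.1% on the other chromosomes. The called genes spanned 4.47 Mb before to 3.42 Mb after *DCL1* in the CZ, and 3.04 Mb before to 4.37 Mb after in P3.

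**Figure D2:**
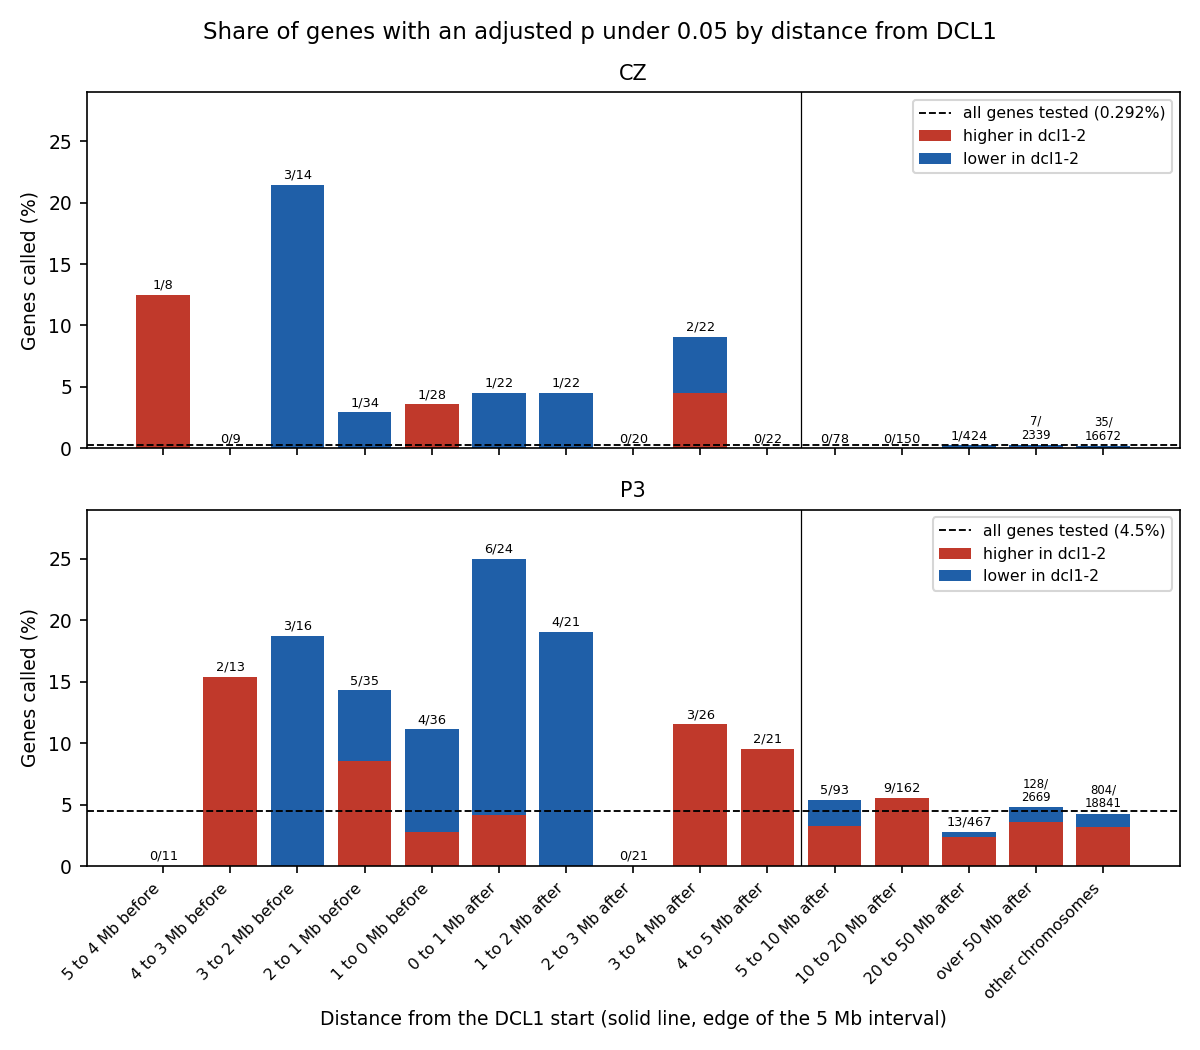
Bars give the percentage of genes tested with an adjusted p under 0.05, split into higher (red) and lower (blue) in *dcl1-2*, by distance from the *DCL1* start (x axis) in the CZ (top) and P3 (bottom); the numbers above are called over tested genes and the dashed lines the share over all genes (0.292% and 4.5%). Bins to the left of the solid line make up the interval, and those at 5 to 10 Mb hold 0 of 78 and 5 of 93 calls.

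By a count that needs no model, the genotypes did not overlap in the CZ for 106 genes of 201 (52.7%, against 40.8% of all genes) and in P3 for 140 of 224 (62.5%, against 50.1%). In the CZ, both *dcl1-2* libraries were below both wild-type libraries for 69 of 201 genes (34.3%, against 18.1% of all genes tested) and above both for 37 (18.4%, against 22.8%). In P3, *dcl1-2* was below for 90 of 224 genes (40.2%, against 29.2%) and above for 50 (22.3%, against 20.8%). Members that passed the filter through wild type alone, 15 in the CZ and 20 in P3, could not have *dcl1-2* above. Those that passed through *dcl1-2* alone, 4 and 8, could not have it below. The count was not repeated for genes at 1 RPM or more in both genotypes. The same side in both tissues was taken by 41 of 181 genes (22.7%, against 7.77%). Below in both tissues stood 31 of the 181 genes tested in both (17.1%, against 4.31%) and above in both 10 (5.52%, against 3.46%). Opposite sides in the 2 tissues were taken by 24 genes (13.3%), near the 12.9% of all genes. With library sizes scaled by TMM, edgeR's trimmed mean of M-values, 29 genes were below in both (16%, against 4.02%) and 12 above (6.63%, against 3.68%), together 41 (7.7% of all genes). In single tissues that scaling gave 76 below (21.1% of all genes) and 35 above (19.7%) in the CZ, and 82 below (24%) and 59 above (25%) in P3.

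Differentially expressed in both tissues were 5 genes of 181, against 0.138% of the genes tested in both, and for 4 of them (0.0794% of all genes) the direction was the same. The called gene with the largest increase in the CZ was GRMZM2G092592, the model that overlaps *MIR171e*, 3.35 Mb after *DCL1*. It had 42.0 and 26.6 RPM in *dcl1-2* CZ, against 5.61 and 6.05 RPM in wild-type CZ, and 88.4 and 91.2 RPM in *dcl1-2* P3, against 5.17 and 8.46 RPM in wild-type P3. The genotypes did not overlap in either tissue, with log2 fold changes of 2.53 ± 0.27 (SE, edgeR adjusted p = 0.00341) in the CZ and 3.80 ± 0.22 (adjusted p = 5.59e-08) in P3. The precursor row itself had 150 and 154 RPM in *dcl1-2* P3, against 7.76 and 14.1 RPM in wild-type P3, and its model overlaps that of the gene, so reads of the gene model and of *MIR171e* cannot be told apart. Of the members, this is the only one whose model overlaps a precursor.

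GRMZM2G087207, 0.587 Mb before *DCL1*, was higher in both tissues. Its level was 143 and 130 RPM in *dcl1-2* CZ, against 81.5 and 59.2 RPM in wild-type CZ, and 55.6 and 59.8 RPM in *dcl1-2* P3, against 32.1 and 36.3 RPM in wild-type P3. The groups did not overlap, and the effects were close, at 0.93 ± 0.16 (SE, log2; edgeR adjusted p = 0.0478) in the CZ and 0.83 ± 0.17 (adjusted p = 0.0107) in P3, with a difference between tissues of -0.10 ± 0.23. The CZ call was lost without either *dcl1-2* CZ library, with an adjusted p of up to 0.0784, and the P3 call without *dcl1-2* P3 replicate 2 (0.106).

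GRMZM2G161560 and GRMZM2G461427, which overlap on opposite strands 2.82 Mb before *DCL1*, were lower in both tissues. GRMZM2G461427 had 210 and 200 RPM in *dcl1-2* CZ, against 326 and 380 RPM in wild-type CZ, and 101 and 98.5 RPM in *dcl1-2* P3, against 257 and 256 RPM in wild-type P3 (log2 fold changes of -0.82 ± 0.13 and -1.30 ± 0.13, SE; edgeR adjusted p = 0.0329 and 2.49e-05). GRMZM2G161560 had 232 and 216 RPM in *dcl1-2* CZ, against 347 and 404 RPM in wild-type CZ (-0.78 ± 0.13), and changed by -0.54 ± 0.13 in P3. The 2 models share reads and are not independent. Their CZ calls were lost without either *dcl1-2* library, at adjusted p up to 0.139 for GRMZM2G461427 and 0.188 for GRMZM2G161560, and the P3 call of GRMZM2G161560 was also lost without either *dcl1-2* P3 library.

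The overlap of models matters for other pairs too. In all, 72 of the 244 members overlap another row of the table, and the 31 pairs of overlapping members all lie on opposite strands. Both members of 2 such pairs had the same count in all 8 libraries, GRMZM2G136859 and GRMZM2G437776 among them, so that a read there was counted for both strands. Without the overlapping members, 7 of 143 genes were called in the CZ (4.9%, against 0.292% of all genes) and 19 of 159 in P3 (11.9%, against 4.5%). The shares over all genes here still include overlapping models.

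The fifth gene called in both tissues, *smt2* (GRMZM2G075701), 3.42 Mb after *DCL1*, changed in opposite directions. Sterol methyltransferases add a methyl group to the side chain of plant sterols. *smt2* had 9.21 and 5.75 RPM in *dcl1-2* CZ, against 27.4 and 22.2 RPM in wild-type CZ, and 68.9 and 97.2 RPM in *dcl1-2* P3, against 40.7 and 46.5 RPM in wild-type P3. It was lower in the CZ (-1.76 ± 0.28, SE, log2; edgeR adjusted p = 0.0298) and higher in P3 (1.00 ± 0.18, adjusted p = 0.00428), and the difference between tissues was 2.77 ± 0.34 (adjusted p = 0.00169). The CZ call was lost without *dcl1-2* replicate 2 (adjusted p = 0.0677) and the P3 call without *dcl1-2* replicate 2 (0.125), while the difference between tissues passed under all 13 alternatives that tested it.

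Of the genes lower in the CZ, *TUB1* (GRMZM2G164696), 2.57 Mb before *DCL1*, had the smallest p. Beta-tubulin is one of the building blocks of microtubules. *TUB1* had 183 and 224 RPM in *dcl1-2* CZ, against 636 and 627 RPM in wild-type CZ (-1.67 ± 0.13, SE, log2; edgeR adjusted p = 0.000979). In P3 the genotypes overlapped, with 477 and 475 RPM in *dcl1-2*, against 517 and 440 RPM in wild type (0.06 ± 0.13, adjusted p = 0.877). The difference between tissues was 1.73 ± 0.19 (adjusted p = 0.00129). Tubulin genes form a family with similar sequences, and reads that map to several of them were not counted.

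GRMZM2G085691, 1.92 Mb before *DCL1*, had 8.85 and 13.8 RPM in *dcl1-2* CZ, against 45.3 and 68.6 RPM in wild-type CZ (-2.37 ± 0.27, SE, log2; edgeR adjusted p = 0.00477). In P3 it had 12.2 and 9.78 RPM in *dcl1-2*, against 18.9 and 24.1 RPM in wild type, without a call (-0.90 ± 0.26, adjusted p = 0.0698). The genotypes did not overlap in either tissue. GRMZM2G448701, 1.55 Mb after *DCL1*, had 0.283 and 0.436 RPM in *dcl1-2* CZ, against 5.14 and 3.61 RPM in wild-type CZ (-3.62 ± 0.61, adjusted p = 0.0416). Its P3 libraries were in the same order, at 0.440 and 0.581 RPM in *dcl1-2*, against 3.52 and 2.55 RPM in wild type, with an adjusted p of 0.0928. GRMZM2G070047, 0.376 Mb after *DCL1*, had 52.8 and 50.4 RPM in *dcl1-2* CZ, against 98.5 and 104 RPM in wild-type CZ (-1.004 ± 0.14, adjusted p = 0.0207), and -0.13 ± 0.14 in P3. The last 2 calls were lost without a *dcl1-2* CZ library, that of GRMZM2G070047 without replicate 2 (adjusted p = 0.0658) and that of GRMZM2G448701 without either (up to 0.0655).

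The third gene higher in the CZ, GRMZM2G093399, lay near the chromosome end, 4.47 Mb before *DCL1*. It had 43.7 and 34.8 RPM in *dcl1-2* CZ, against 13.3 and 14.5 RPM in wild-type CZ (1.47 ± 0.21, SE, log2; edgeR adjusted p = 0.0207), and 15.4 and 16.1 RPM in *dcl1-2* P3, against 9.21 and 10.3 RPM in wild-type P3, where the test did not pass (0.76 ± 0.28, adjusted p = 0.156). The calls in the CZ of GRMZM2G085691, GRMZM2G092592, GRMZM2G093399 and *TUB1* passed under every alternative run for single genes, 4 of the 10.

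In P3, GRMZM2G137352, 1.65 Mb before *DCL1*, had the smallest p among the members other than the model over *MIR171e*. It had 25.9 and 24.7 RPM in *dcl1-2* P3, against 1.86 and 1.51 RPM in wild-type P3 (3.96 ± 0.33, SE, log2; edgeR adjusted p = 2.74e-06). In the CZ it had 11.8 and 12.2 RPM in *dcl1-2*, against 2.90 and 3.83 RPM in wild type (1.80 ± 0.32, adjusted p = 0.0517). All 4 *dcl1-2* libraries thus lay above all 4 wild-type libraries.

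*rld2*, 1.81 Mb before *DCL1*, was the only listed miRNA target among the members. It had 120 and 108 RPM in *dcl1-2* P3, against 62.4 and 75.2 RPM in wild-type P3 (0.80 ± 0.15, SE, log2; edgeR adjusted p = 0.00517). In the CZ the genotypes overlapped, with 175 and 208 RPM in *dcl1-2*, against 202 and 222 RPM in wild type (-0.18 ± 0.14, adjusted p = 0.717). The difference between tissues was 0.99 ± 0.20 (adjusted p = 0.0243), and this call was lost when any 1 of the P3 libraries or *dcl1-2* CZ replicate 1 was left out, at adjusted p up to 0.106. Of the 2 other listed targets in the interval, GRMZM2G060265 was at 0.207 RPM or less in every library and GRMZM2G075870 was at 0 counts, so neither is a member.

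Among the other genes higher in P3, 4 had log2 fold changes of 0.45 to 1.26. GRMZM2G047002 had 21.8 and 39.4 RPM in *dcl1-2* P3, against 14.4 and 12.4 RPM in wild-type P3 (1.26 ± 0.28, SE, log2; edgeR adjusted p = 0.0175). GRMZM2G055575, GRMZM2G157510 and GRMZM2G171181 had log2 fold changes of 0.81, 0.70 and 0.45, and their genotypes did not overlap in P3. GRMZM2G171181 had 898 and 867 RPM in *dcl1-2* P3, against 669 and 688 RPM in wild-type P3. The calls of these 4 genes were lost without *dcl1-2* P3 replicate 2.

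The 2 genes lower in P3 whose effect differed from the CZ under every alternative lay on the far side of *DCL1*. GRMZM2G105415, only 0.111 Mb after *DCL1*, had 1.21 and 1.94 RPM in *dcl1-2* P3, against 15.5 and 12.6 RPM in wild-type P3 (-3.08 ± 0.42, SE, log2; edgeR adjusted p = 0.000408). In the CZ it had 56.2 and 64.5 RPM in *dcl1-2*, against 35.7 and 49.9 RPM in wild type (0.46 ± 0.19, adjusted p = 0.424), and the difference between tissues was -3.53 ± 0.40 (adjusted p = 0.00129). GRMZM2G428184, 1.14 Mb after *DCL1*, had 0.440 and 0.968 RPM in *dcl1-2* P3, against 6.62 and 12.5 RPM in wild-type P3 (-3.64 ± 0.57, adjusted p = 0.00132). Its CZ levels were 29.3 and 35.0 RPM in *dcl1-2*, against 18.2 and 26.4 RPM in wild type, and the difference between tissues was -4.12 ± 0.56 (adjusted p = 0.00324). Both genes thus had more RPM in the CZ than in P3 in every library. GRMZM2G129243, which overlaps GRMZM2G428184 on the opposite strand, changed by -0.82 ± 0.19 in P3 (adjusted p = 0.0203). Its CZ levels, 33.4 and 39.7 RPM in *dcl1-2* against 20.3 and 28.7 RPM in wild type, were close to those of GRMZM2G428184. In P3 the 2 models parted, with GRMZM2G129243 at 27.0 and 23.4 RPM in *dcl1-2*, against 42.7 and 50.7 RPM in wild type. How far reads of GRMZM2G129243 make up the CZ level of GRMZM2G428184 was not tested.

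**Figure D3:**
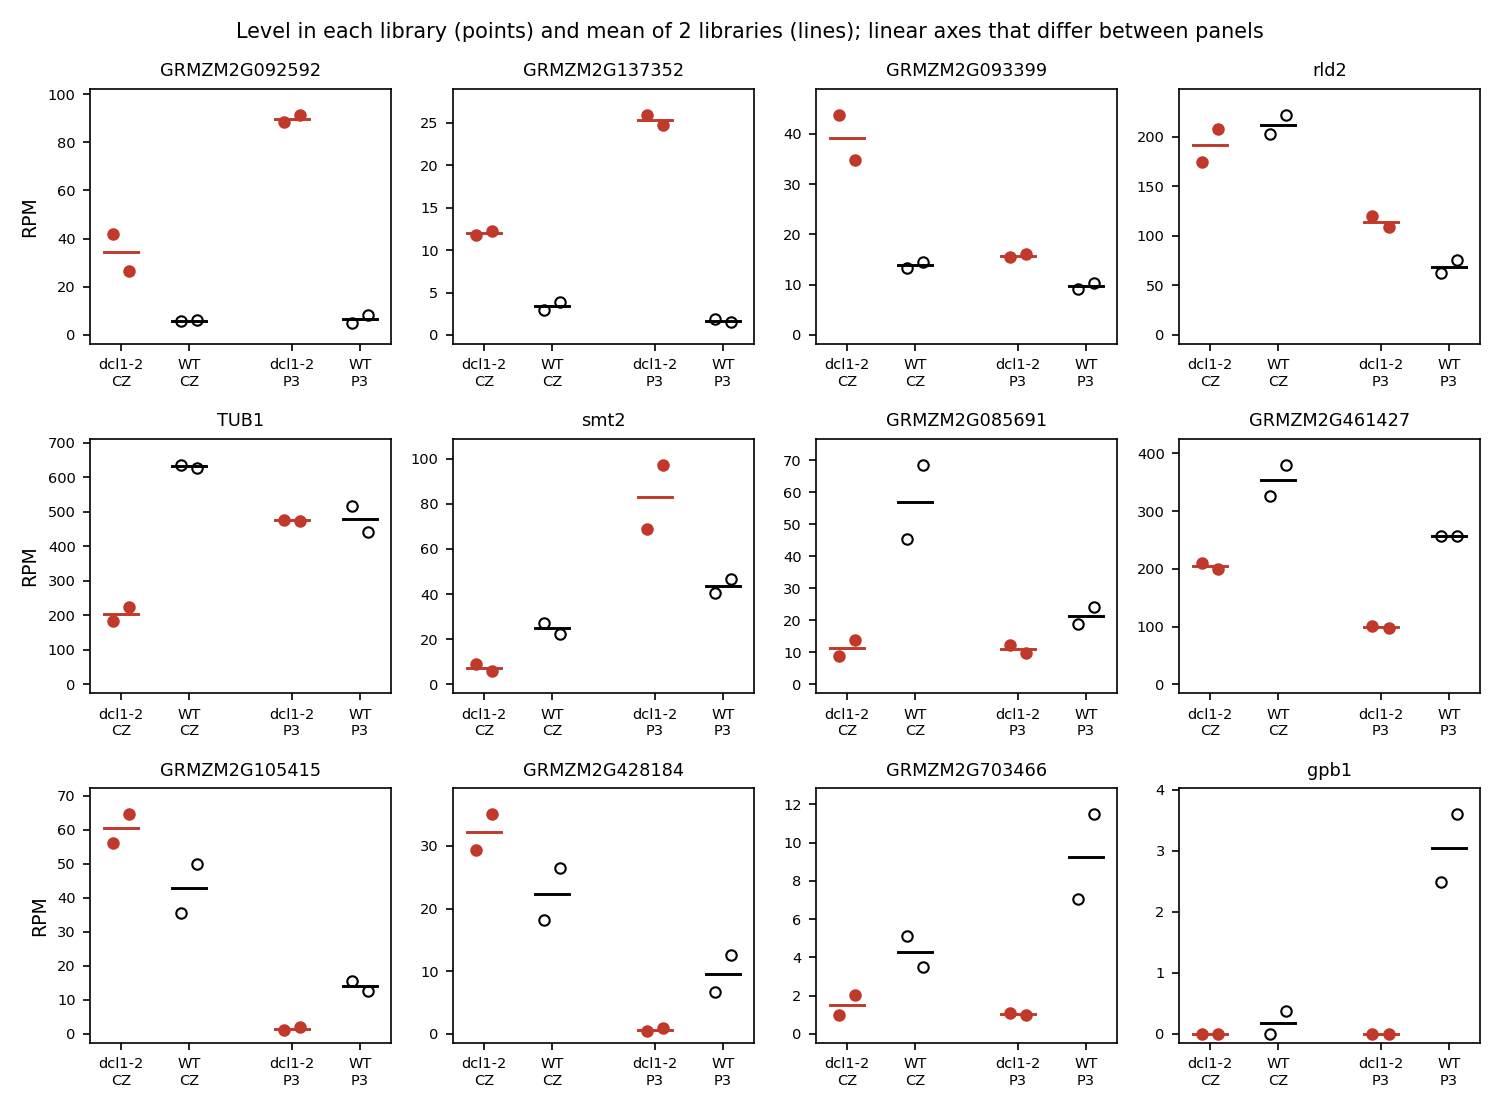
Each panel gives RPM (linear y axis from 0) for 1 member in each *dcl1-2* library (filled red points) and wild-type library (open points) of the CZ and P3, with a line at the mean of 2 libraries. *TUB1* is low in *dcl1-2* CZ alone (183 and 224 RPM), GRMZM2G105415 in *dcl1-2* P3 next to its own CZ levels (1.21 and 1.94 RPM), and *smt2* is lower in the CZ and higher in P3.

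GRMZM2G159427, 0.393 Mb after *DCL1*, had 7.6 and 6.2 RPM in *dcl1-2* P3, against 22.2 and 20.9 RPM in wild-type P3 (-1.58 ± 0.28, SE, log2; edgeR adjusted p = 0.00362). GRMZM2G703466 and GRMZM2G035377, 2.56 and 1.95 Mb before *DCL1*, were near 1 RPM or below in *dcl1-2* P3. GRMZM2G703466 had 1.101 and 0.968 RPM there, against 7.03 and 11.5 RPM in wild-type P3 (-3.07 ± 0.51, adjusted p = 0.00204). GRMZM2G035377 had 0.661 and 0.484 RPM, against 4.86 and 6.03 RPM in wild-type P3 (-3.16 ± 0.65, adjusted p = 0.0107). In the CZ the *dcl1-2* libraries of these 3 genes were also below the wild-type libraries, without a call. GRMZM2G303810, which lies 0.167 Mb before *DCL1*, and GRMZM2G176521, 0.848 Mb after it, had log2 fold changes of -3.11 ± 0.64 and -2.65 ± 0.63 in P3. Their CZ genotypes overlapped, and GRMZM2G303810 was below the filter in the CZ and not tested there. GRMZM2G035377, GRMZM2G303810 and GRMZM2G176521 passed the P3 filter through wild type alone and could only be lower.

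At the low end, 10 members had 3 counts or fewer over both libraries of 1 genotype in P3 (4.46% of those tested, against 0.885% of all genes). Each was tested in P3 only because the other genotype reached 1 RPM, so these members had to differ to be counted and nothing is read from their share. Of them, 7 were low in *dcl1-2* (0.431% of all genes) and 3 in wild type (0.453%). In the CZ there were 0 such members (0.312% of all genes). *gpb1* (GRMZM5G845611), 1.80 Mb after *DCL1*, had no count in *dcl1-2* P3, against 2.48 and 3.59 RPM in wild-type P3, and was at least 19.5-fold lower (computed against 3 counts over the group; edgeR adjusted p = 0.00598). GRMZM2G320117 likewise had no count in *dcl1-2* P3, against 1.76 and 1.04 RPM in wild type, at least 9.20-fold lower (adjusted p = 0.0369).

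Both of these genes were also low in the CZ, where *gpb1* had no count in *dcl1-2* and 0.376 RPM in 1 wild-type library. GRMZM2G176849, 0.163 Mb after *DCL1*, had 2 counts over the *dcl1-2* P3 libraries, against 76 over the wild-type P3 libraries, a 40.3-fold lower RPM (95% interval 10.8 to 339, counting error only; adjusted p = 0.00517). Its CZ levels of 4.12 and 2.497 RPM in *dcl1-2* overlapped those of wild type, at 3.69 and 1.54 RPM. GRMZM2G475380, on the opposite strand of the same place, shares its pattern and its reads.

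On the other side, GRMZM2G097229 had 54 counts over the *dcl1-2* P3 libraries, against 2 over the wild-type P3 libraries, and was 25.4-fold higher (95% interval 6.71 to 215; edgeR adjusted p = 0.0231). GRMZM2G397508, which overlaps it 3.04 Mb before *DCL1*, had 45 counts, against 1. GRMZM2G144197, an AAA-ATPase gene by its name, had 4.62 and 3.39 RPM in *dcl1-2* P3, against 0.724 and 0.696 RPM in wild-type P3 (2.54 ± 0.68, SE, log2; adjusted p = 0.0465). In the CZ all 3 were below 1 RPM in every library. The P3 calls that passed under every alternative run for single genes were 10 of the 29. They were those of *rld2*, GRMZM2G035377, GRMZM2G092592, GRMZM2G105415, GRMZM2G137352, GRMZM2G159427, GRMZM2G176849, GRMZM2G428184, GRMZM2G461427 and GRMZM2G703466. Each other P3 call was lost under at least 1 alternative. Of the 10, GRMZM2G035377, GRMZM2G176849 and GRMZM2G428184 passed the P3 filter through wild type alone and could only be lower. A filter on both genotypes was not among the alternatives for single genes.

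The effect of *dcl1-2* differed between the tissues for 17 of 244 members, 10 with a higher and 7 with a lower value in P3 (6.97%, against 2.36% of all 23512 genes tested, 2.03% with a higher value). For 15 the difference was 1 or more on the log2 scale (2.06% of all genes). Lower values were 0.327% of all genes and 2.87% of the members. The count fell to between 4 and 9 (1.64% to 3.69%, against 0.383% to 1.41% of all genes) without any 1 of the P3 libraries, *dcl1-2* CZ replicate 1 or *dcl1-2* CZ replicate 2. *smt2*, *TUB1*, GRMZM2G105415 and GRMZM2G428184 were the 4 that passed under every alternative. Across the 181 genes tested in both tissues, the log2 fold changes in the CZ and P3 had Pearson's r = 0.25 and Spearman's rho = 0.12, and 94 had the same sign (51.9%). For the 18671 other genes r was -0.01 and rho -0.14, with 44.5% of the same sign; these are descriptions over genes, which share libraries and are not independent replicates. Without GRMZM2G092592, r was 0.19.

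**Figure D4:**
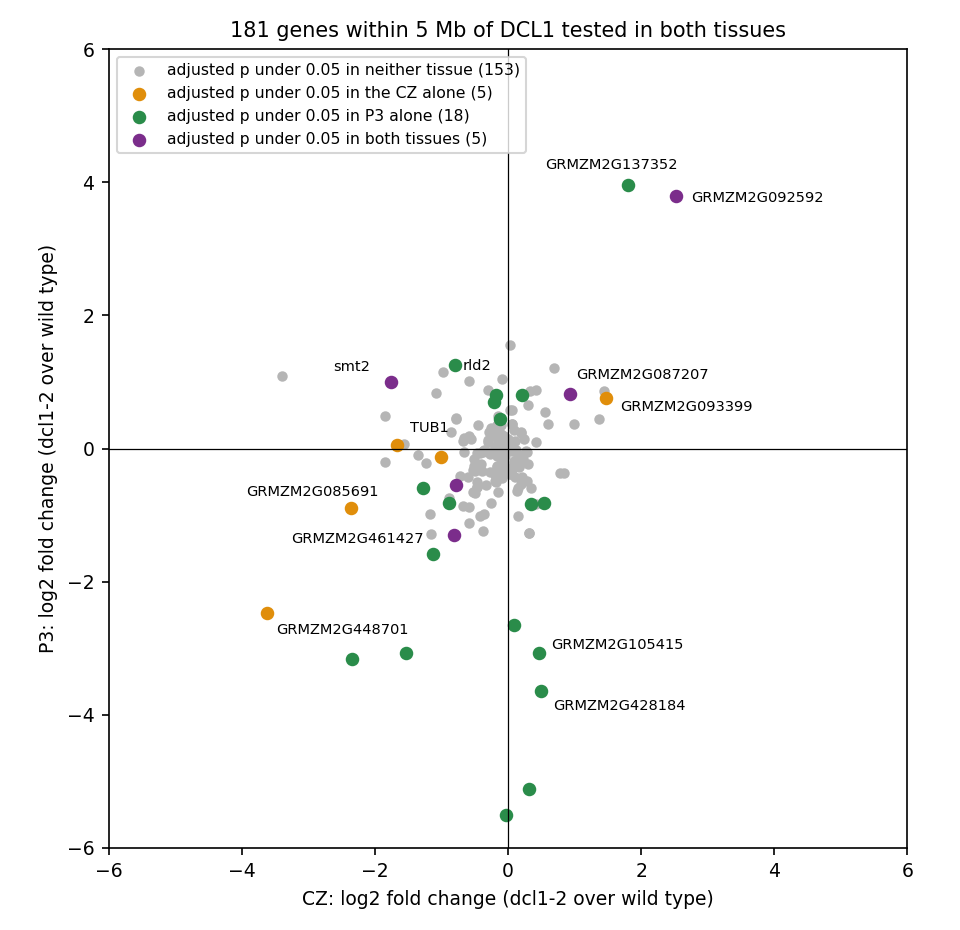
Each point is 1 of the 181 genes tested in both tissues, with its log2 fold change of *dcl1-2* over wild type in the CZ (x axis) and in P3 (y axis); colours give the tissues in which the adjusted p was under 0.05, 5 genes in both (purple). GRMZM2G137352 and GRMZM2G092592 lie high in both tissues, GRMZM2G105415 and GRMZM2G428184 low in P3 with CZ values of 0.46 and 0.49, and *TUB1* low in the CZ at 0.06 in P3.

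Of the 10 tested members nearest to *DCL1*, 5 on either side, GRMZM2G105415 was called in P3 and the other 9 were not, against 4.5% called of all genes. Those 9 include a pair with the same counts in all 8 libraries. Just past them, GRMZM2G176840 at 0.159 Mb was not called in P3. GRMZM2G176849 and GRMZM2G475380 at 0.163 Mb and GRMZM2G303810 at 0.167 Mb were called lower. These last 3 averaged below 1 RPM in *dcl1-2* P3 and could only be lower. On the near side, GRMZM2G507683 and GRMZM2G341934 lie within 0.0043 Mb of its start and had adjusted p = 0.306 and 0.672 in P3 (edgeR). GRMZM2G507683 had 3.96 and 4.36 RPM in *dcl1-2* P3, against 2.28 and 1.62 RPM in wild-type P3. GRMZM2G082227, 0.0587 Mb before it, had 1.65 and 2.81 RPM, against 8.38 and 3.71 RPM in wild-type P3 (adjusted p = 0.198). The pair GRMZM2G136859 and GRMZM2G437776 had 41.2 and 34.2 RPM in *dcl1-2* P3, against 24.3 and 30.1 RPM in wild-type P3 (0.54 ± 0.20, SE, log2; adjusted p = 0.151). On the far side, GRMZM2G105415 is the nearest member and was called, while GRMZM2G105436, GRMZM2G475296, GRMZM2G176820 and GRMZM2G176837, up to 0.152 Mb from *DCL1*, were not, at adjusted p of 0.0941 or more in P3.

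A gene name was available for 23 members, and 150 matched the name table at all. Of the 23, 17 could be tested in the CZ, with 0 higher (0 also by DESeq2 and by an unadjusted p under 0.05 in edgeR) and 2 lower, against 0.116% and 0.176% of all genes, and 22 in P3, with 3 higher and 1 lower, against 3.34% and 1.16%. Several genes with known cellular roles were not called in either tissue. *cdc2* (GRMZM2G008327), a cyclin-dependent kinase gene, had 54.7 and 62.3 RPM in *dcl1-2* CZ, against 51.1 and 58.3 RPM in wild-type CZ (0.06 ± 0.16, SE, log2; edgeR adjusted p = 0.937), and -0.04 ± 0.14 in P3. *fus6* (GRMZM2G062210), which in *Arabidopsis* encodes a subunit of the COP9 signalosome, had -0.10 ± 0.16 in the CZ and 0.19 ± 0.17 in P3. *Med12a* (GRMZM2G114459), a Mediator subunit gene, had 53.3 and 55.3 RPM in *dcl1-2* P3, against 56.0 and 60.3 RPM in wild-type P3.

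The histone H4 gene GRMZM2G181153 had 1504 and 1492 RPM in *dcl1-2* P3, against 1637 and 1108 RPM in wild-type P3, and 115 and 78.7 RPM in *dcl1-2* CZ, against 147 and 139 RPM in wild-type CZ. Its values are uncertain, since histone genes have near-identical copies. *gst10* and *gst12* encode glutathione S-transferases, which conjugate glutathione to toxic compounds. *gst10* (GRMZM2G096153) had 52.6 and 51.0 RPM in *dcl1-2* P3, against 45.7 and 46.3 RPM in wild-type P3 (0.24 ± 0.16, SE, log2; edgeR adjusted p = 0.488). *gst12* (GRMZM2G096269) had counts in 1 wild-type library of each tissue, at 1.71 RPM in the CZ and 2.43 RPM in P3, and none in the other 6 libraries.

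The beta-expansin gene *expB3* (GRMZM2G474194), whose family loosens cell walls, was expressed in P3 with 23.8 and 25.3 RPM in *dcl1-2*, against 25.9 and 25.7 RPM in wild type (-0.01 ± 0.21, SE, log2; edgeR adjusted p = 0.991). In the CZ it had no count in *dcl1-2*, against 0.923 and 0.113 RPM in wild type, beside YABBY sums that were also lower in *dcl1-2* CZ. *lpa1* (GRMZM5G820122), an ABC transporter gene needed for normal seed phytic acid, had 42.7 and 44.4 RPM in *dcl1-2* P3, against 42.7 and 40.1 RPM in wild-type P3 (0.14 ± 0.17, adjusted p = 0.734). *btf3*, *spr1*, *RIP1*, *ZAGL1* and *PP2C22* did not pass in either tissue, with adjusted p between 0.15 and 0.929.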

How the data were processed

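RNA-seq reads from 8 laser-microdissected libraries (2 each of *dcl1-2* CZ, wild-type CZ, *dcl1-2* P3 and wild-type P3, grouped by the labels) were trimmed with Trimmomatic and aligned to B73 RefGen_v3 with TopHat by the authors, who deposited raw gene-level counts of uniquely mapped reads from HTSeq, with curated precursor models added. The strand setting is not given in the sources used here. The 8 RPM columns of the same table were not used; RPM here is the count over the column total. 1 blank count cell was read as 0, and 0 rows lacked a name. The authors deposited counts of mature miRNAs from 1 wild-type small RNA library, used for sequences and read numbers only, after trimming with cutadapt 1.13 and alignment with Bowtie 1.1.2.

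The edgeR 4.0.16 package (with limma 3.58.1) in R 4.3.3 was run with TMM scaling and its quasi-likelihood F test on the 4 libraries of each tissue, and over all 8 libraries for the difference between tissues. Genes averaging 1 RPM or more in a group of the fit were tested, with Benjamini-Hochberg adjustment over all of them; a call is an adjusted p under 0.05. The SE of a log2 fold change is its size over the square root of F. The steps were tested on simulated data. Alternatives were DESeq2 1.42.0, other filters, scalings and windows, all libraries in 1 model, a replicate block and leaving out each library.

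Totals of 24753974 to 30327603 counts in the CZ and 8626824 to 10328582 in P3 make 1 count worth 0.033 to 0.0404 RPM per CZ library, and 0.0968 to 0.116 RPM per P3 library; the limit that 0 counts allow was set at 3 counts over a group, and intervals at 95% cover counting error only. Gene names were looked up in an annotation of Zm-B73-REFERENCE-NAM-5.0, for names alone, which matched 18883 rows of the count table. No promoter or protein sequence was used here. The interval, the gene lists and the rule for named genes were chosen with earlier results of these data known. Named are, per tissue, up to 10 highest and 10 lowest called members whose genotypes do not overlap and whose higher genotype averages 5 RPM or more; members called in both tissues or, up to 10, in the difference between tissues; the 5 tested members nearest to *DCL1* on either side; up to 15 members with a gene name or in the study's lists; up to 10 with 3 counts or fewer in a genotype; and the 5 with the highest mean RPM. Other called members were named after their values were seen, and not all genes of the rule are printed. Python 3.11.15 with numpy 2.4.6, scipy 1.17.1, pandas 2.3.3 and matplotlib 3.10.9 was used for summaries and plots.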

Additional observations from a re-analysis of the deposited data

Results flagged for a closer look

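The effect of *dcl1-2* differed between P3 and the CZ for 17 members in edgeR's test of the difference itself (the log2 fold change in P3 minus that in the CZ, adjusted p under 0.05). Positive differences were those of GRMZM2G008773 (4.49), *smt2* (2.77), GRMZM2G137352 (2.17), GRMZM2G047002 (2.06), *TUB1* (1.73), GRMZM2G107532 (1.63), the overlapping models GRMZM2G013986 and GRMZM5G829371 (1.24 each), *rld2* (0.99) and GRMZM2G070047 (0.88). Negative differences were those of GRMZM2G176849 (-5.49), GRMZM2G428184 (-4.12), GRMZM2G105415 (-3.53), GRMZM2G180951 (-3.24), GRMZM2G129243 (-1.35) and GRMZM2G308570 (-1.17).

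Several of these were not called in either tissue alone. GRMZM2G008773, 0.717 Mb before *DCL1*, had 7.38 and 16.1 RPM in *dcl1-2* P3, against 4.86 and 6.72 RPM in wild-type P3, and 0.364 and 0.198 RPM in *dcl1-2* CZ, against 3.96 and 1.92 RPM in wild-type CZ, so *dcl1-2* stood above in P3 and below in the CZ. GRMZM2G013986 and GRMZM5G829371, which share their reads, had 108 and 111 RPM in *dcl1-2* P3, against 92.3 and 75.1 RPM in wild-type P3, and 36.1 and 32.4 RPM in *dcl1-2* CZ, against 55.6 and 59.9 RPM in wild-type CZ (values of GRMZM2G013986). GRMZM2G107532 had 4.04 and 2.58 RPM in *dcl1-2* CZ, against 10.2 and 8.94 RPM in wild-type CZ, and overlapping genotypes in P3.

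For 2 of the genes 1 tissue was near the limit of counting. GRMZM2G124550 had 0.485 and 0.238 RPM in *dcl1-2* CZ and no count in wild-type CZ, against 6.39 to 8.93 RPM in the P3 libraries of both genotypes. Its fitted difference of -5.84 passed the test, but with no count in wild-type CZ it depends on the prior count and is no estimate of size. GRMZM2G180951 had 0.110 and 0.0968 RPM in *dcl1-2* P3, against 0.828 and 0.696 RPM in wild-type P3, while its CZ levels were 29.6 and 25.4 RPM in *dcl1-2*, against 19.6 and 18.4 RPM in wild type. GRMZM2G308570 had 15.9 and 14.4 RPM in *dcl1-2* P3, against 29.3 and 27.2 RPM in wild-type P3, and stood above wild type in the CZ, at 31.7 and 29.9 RPM, against 23.9 and 23.6 RPM.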

How the results depend on the processing

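The single-gene tests counted under the alternatives cover a part of the members. Of them, 1702 kept their side of the threshold, 144 lost it and 85 passed it anew. Passing throughout held for 4 of 10 CZ calls, 10 of 29 P3 calls and 4 of 17 calls of the difference between tissues. The CZ count of 10 members became 19 with all 8 libraries in 1 model, 23 with DESeq2, 30 with no filter on low counts and 4 in a window of 2 Mb; the shares over all genes were 1.22%, 1.73%, 2.31% and 0.292%. The P3 count of 29 became 14 with all 8 libraries in 1 model (1.92% of all genes), 19 with a log2 fold change of 1 or more in either direction (2.76%), 19 in a window of 2 Mb, 19 without overlapping models (4.5% each) and 18 with 1 RPM in both genotypes (4.28%). The count of the difference between tissues, 17, became 30 with no filter (12.3% of members, against 4.86% of all genes). Leaving out 1 library gave 5 to 21 members in the CZ (0.206% to 2.9% of all genes), 13 to 40 in P3 (2.33% to 8.26%) and 4 to 16 for the difference (0.383% to 3.89%). In a window of 10 Mb 1 gene in place of 0 had 3 counts or fewer in a genotype of the CZ, and Pearson's r between the tissues was 0.382 among 142 genes at 5 RPM or more, against 0.253. With 1 row kept per cluster of overlapping models, also chosen after seeing the data, 9 and 25 members were called in the CZ and P3 (0.292% and 4.5% of all genes). For this count and the count without overlapping models, the shares over all genes still include overlapping models. The cause of these shifts was not tested.

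Replicate numbers are shared between genotypes. The deviations of same-numbered libraries had a low correlation (0.0682 in the CZ and 0.00752 in P3), and no pairing was assumed. A low correlation does not exclude a pairing that acts on part of the genes. With the replicate number as a block, 22 members were called in the CZ (1.55% of all genes), 42 in P3 (7.16%) and 25 for the difference (4.03%). Depth limits P3 most, where a gene at 1 RPM rests on about 9 to 10 counts per library.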

Other observations

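A second precursor in the interval, *MIR528a*, 1.81 Mb after *DCL1*, had no count in any of the 8 RNA-seq libraries, while the sequence shared by miR528a and miR528b was read 38 times in the wild-type small RNA library. It is a precursor and no member of the interval's 244 genes.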
